A study of Mus musculus with 11 samples.

Results

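Astrocyte uptake and recycling of glutamate and GABA was followed through 7 genes: the glutamate transporters Slc1a2 and Slc1a3, glutamine synthetase (Glul), the glutamine transporters Slc38a3 and Slc38a5, the GABA transporter Slc6a11 and glutamate dehydrogenase (Glud1). They were chosen by name, and their probes were found through RefSeq accessions. They made up 7 of 25986 measured features, and 10 of the 55681 distinct probes belonged to them. All 10 probes were well above background in 22 of 22 channels, and 0 spots were saturated.

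Transmitter glutamate is cleared from the synapse mainly by astrocytes, through GLT-1 (the product of Slc1a2) and GLAST (the product of Slc1a3). Inside the astrocyte, glutamine synthetase turns it into glutamine, and the transporters SNAT3 (Slc38a3) and SNAT5 (Slc38a5) carry glutamine out again for neurons to use as a precursor of glutamate and GABA. GAT-3 (Slc6a11) takes up GABA, and glutamate dehydrogenase feeds glutamate into the citric acid cycle.

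RNA of right hemisphere cortex from 22 mice was hybridised to 11 Agilent arrays of 2 colours, with a different mouse in each channel. Wild-type mice were left intact (WT, n = 6) or received a cryolesion (WTC, n = 5), and GFA2-tTa/TetO-VP16-CREB mice were likewise left intact (T, n = 5) or lesioned (TC, n = 6). In the transgenic mice a tetracycline-controlled transactivator under GFA2, a GFAP promoter fragment used for expression in astrocytes, drives VP16-CREB, in which the transcription factor CREB is always active. All groups had the strain background C57/Bl6J and an age of 5 to 7 months. The lesion was made by holding a dry ice pellet to the brain surface for 30 s, and lesioned mice were killed 3 days later. In such tissue, fewer cells of a type and less RNA per cell cannot be told apart.

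The arrays are called A to F (slide 1) and I to M (slide 2). All WT mice were on slide 1. Astrocyte markers were present in every group: the mean log2 level of the 22 listed markers lay between 12.16 and 13.20 across the mice. One lesioned mouse stood apart: in the TC mouse of array I the mean level of 13 reactive astrocyte genes was 9.84; the remaining TC mice had 10.92 to 12.14, and no intact mouse exceeded 9.34. The channel 2 labels of arrays I, J and K contradict the titles, which were followed here: the mice concerned are TC, T and TC by title and T, TC and T by label. The mean reactive astrocyte level was 9.21 in the mouse of array J, within the range of the other intact mice, and 12.14 in that of array K, above every intact mouse, so both went with the titles. The mouse of array I is the one that stood apart; its mean level of dividing cell genes was 6.92, within the intact range of 6.65 to 7.39. Levels below are log2 channel values and describe 1 probe across mice; they cannot be compared between genes. Fitted differences are log2 ratios ± SE (standard error) and come from limma run on the 11 array ratios, with Benjamini-Hochberg adjusted p over all features and a threshold of 0.05.

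**Figure D1:**
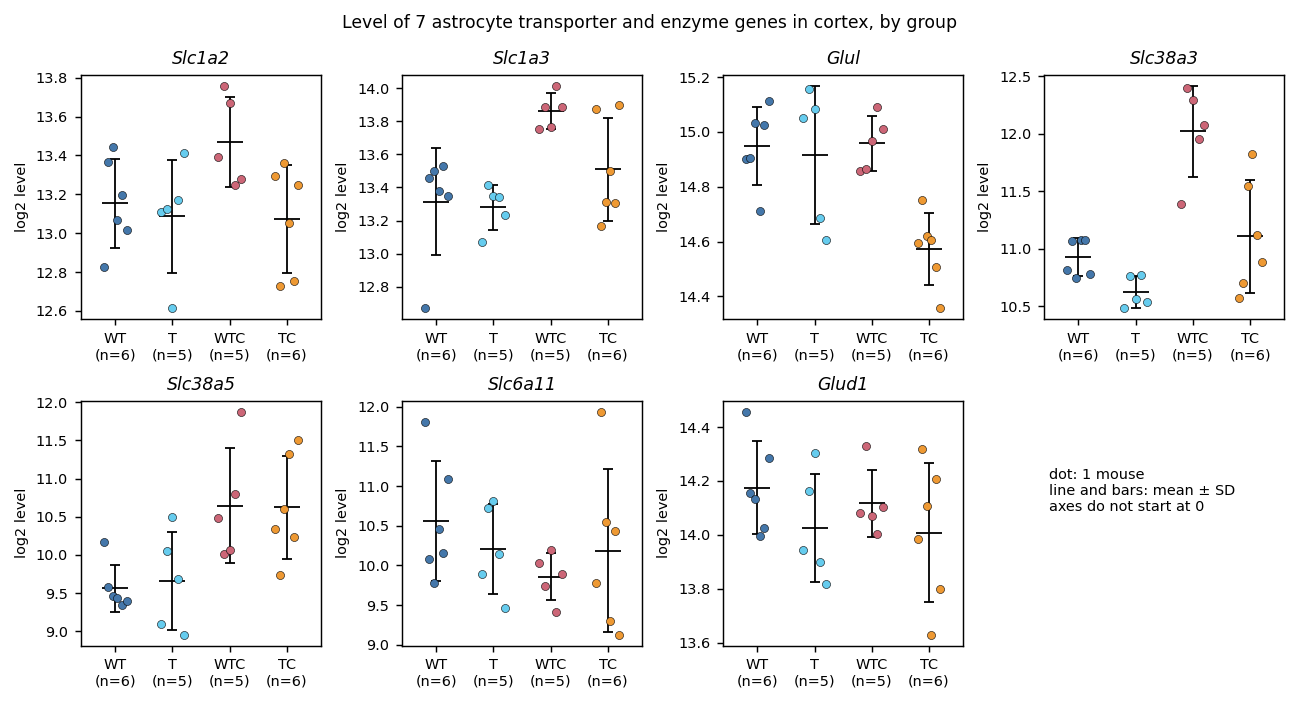
Log2 level of each of the 7 genes in every mouse (dots), with the group mean and SD (line and bars), for WT (n = 6), T (n = 5), WTC (n = 5) and TC (n = 6). Slc1a3 and Slc38a3 lay higher in all WTC mice than in any WT mouse, and Glul lay lower in all TC mice than in any WTC mouse.

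CREB binds cAMP response elements, so the promoters of the 7 genes were searched for that element. Those of 3 genes with lower values in lesioned transgenic than in lesioned wild-type mice are printed. RefSeq promoters (GRCm38.p6) matched 6 of the 7 genes; Slc38a3 was not matched. The 250 bases before the start of Slc1a2 (chr2:102706188-102706437, plus strand), Slc1a3 (chr15:8710808-8711057, minus strand) and Glul (chr1:153899679-153899928, plus strand) are shown 5′ to 3′, with the half-site TGACG in capitals.
Slc1a2: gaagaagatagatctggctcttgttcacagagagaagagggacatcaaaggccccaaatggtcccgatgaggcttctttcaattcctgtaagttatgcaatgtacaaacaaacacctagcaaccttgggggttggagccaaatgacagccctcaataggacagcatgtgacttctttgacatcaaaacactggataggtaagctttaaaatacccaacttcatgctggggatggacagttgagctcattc
Slc1a3: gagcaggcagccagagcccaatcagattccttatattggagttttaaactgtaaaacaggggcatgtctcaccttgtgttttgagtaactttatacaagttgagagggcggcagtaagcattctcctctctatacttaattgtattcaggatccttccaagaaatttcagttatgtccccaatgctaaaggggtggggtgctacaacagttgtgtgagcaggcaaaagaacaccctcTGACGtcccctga
Glul: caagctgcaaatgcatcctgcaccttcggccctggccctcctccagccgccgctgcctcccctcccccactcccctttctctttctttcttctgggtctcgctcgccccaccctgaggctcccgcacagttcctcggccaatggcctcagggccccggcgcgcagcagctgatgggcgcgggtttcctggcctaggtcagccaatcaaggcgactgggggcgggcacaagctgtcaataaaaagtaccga
On either strand, TGACG was found in 1 of the 6 promoters, that of Slc1a3, on the gene's strand, 13 bases before the start. It occurs in 17.8% of all 32851 promoters of that length. The full element TGACGTCA, which contains the half-site, was in 0 of the 6 and in 1.55% of all promoters. These matches describe letters in the window only.

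After a cryolesion in wild-type mice, the glutamine transporters Slc38a3 and Slc38a5 and the glutamate transporter Slc1a3 had the highest values relative to intact cortex, at a fitted 1.86-fold, 1.54-fold and 1.53-fold. Slc1a2 stood at 1.26-fold, while Glul, Glud1 and Slc6a11 were within 1 SE of no difference. In the ratio fit 0 of the 7 passed the adjusted threshold, against 0.0231% of all features. At an unadjusted p under 0.05 there were 2 of 7, both higher, where 12.6% of all features were higher at that threshold.

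Slc38a3, which exports glutamine from astrocytes, had log2 levels from 10.75 to 11.08 in WT mice, with a median of 10.94. In the 5 WTC mice its level was 11.39 (array A), 12.40 (B), 12.30 (K), 11.96 (L) and 12.08 (M). Every WTC mouse was above every WT mouse. The ratios of both arrays that paired WTC with WT were 0.57 and 1.32, and the fitted difference WTC minus WT was 0.89 ± 0.22 (unadjusted p = 0.0024, limma adjusted p = 0.11). Leaving out array I brought the adjusted p to 0.028, and leaving out array K to 0.040. Without array B, the one with the larger paired ratio, the difference was 0.595 (limma adjusted p = 0.81). The number of all features passing for WTC minus WT also varied widely when single arrays were left out. It ran from 0 to 1557, against 6 in the fit of all arrays, so these calls of Slc38a3 cannot be read apart from that change.

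Slc1a3, the glutamate transporter GLAST, ran from 12.67 to 13.53 in WT mice, with a median of 13.42. Its level in the WTC mice, in the same order of arrays, was 13.75, 13.88, 13.77, 14.02 and 13.89. These groups did not overlap either, and the WT mouse of array A lay well under the other WT mice. The ratios of the arrays that paired WTC with WT were 1.08 (A) and 0.43 (B). The fitted difference was 0.61 ± 0.18 (unadjusted p = 0.0074, limma adjusted p = 0.13). It was 0.41 without array A and 0.74 without array B (limma adjusted p = 0.26 and 0.81). WTC levels above all WT levels were thus seen for 2 of the 7 genes, against 9.13% of all features.

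Slc1a2, the transporter GLT-1, ran from 12.83 to 13.44 in WT mice (median 13.13) and was 13.39, 13.76, 13.67, 13.25 and 13.28 in the WTC mice. The groups overlapped, and the fitted difference was 0.33 ± 0.15 (limma adjusted p = 0.26). Glul overlapped throughout, with 14.71 to 15.11 in WT and 14.86 to 15.09 in WTC mice and a difference of 0.14 ± 0.14 (limma adjusted p = 0.62). The ratio of Glud1 was 0.06 ± 0.17 (limma adjusted p = 0.86). Under median centring of the arrays in place of loess, under which the median difference of all features in this comparison was -0.105 instead of 0.003, Glul and Glud1 turned to -0.08 and -0.16, Slc38a3 stood at 0.65 and Slc1a3 at 0.38.

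Treating each channel as a sample of its own, in a limma fit with an intraspot correlation of 0.318, uses all 22 mice as they are grouped. There 3 of the 7 genes passed for WTC minus WT, all higher, while 26.5% of all features passed and 14.3% were higher. Slc38a3 rose by 1.03 ± 0.18 (limma adjusted p = 0.00092), Slc1a3 by 0.57 ± 0.14 (limma adjusted p = 0.0074) and Slc38a5 by 0.95 ± 0.34 (limma adjusted p = 0.045). Without the TC mouse of array I, the brightest probe of Slc1a2 passed as well, at 0.35 ± 0.13 (limma adjusted p = 0.047), with 32.3% of all features. A fit to slide 1 alone called 2 of the 7, Slc38a3 and Slc6a11, and gave Slc38a3 a difference of 0.95 ± 0.17 (limma adjusted p = 0.040) with 8.23% of all features called. On that slide only arrays A and B held WTC mice.

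In transgenic mice, lesioned cortex was set against intact cortex in the same way, and Slc38a3 had a fitted ratio above 0 that rested largely on 1 array. For TC minus T, 0 of the 7 passed in the ratio fit, as 0% of all features did, and 0 had an unadjusted p under 0.05, against 11.9% of all features. Slc38a3 was 10.48, 10.77, 10.57, 10.77 and 10.53 in the T mice (arrays D, E, F, I and J). In the TC mice it ran from 10.57 to 11.83 with a median of 11.003, so that the groups overlapped. The TC mice of arrays J and K, at 11.55 and 11.83, lay highest, within the WTC range. The arrays that paired TC with T had ratios of -0.07 (I) and 1.02 (J). The fitted difference was 0.43 ± 0.21 (limma adjusted p = 0.46), and array J carried most of it: without that array it was 0.12, and that of Slc38a5 was 0.03 (limma adjusted p = 0.999 for both). Without array I, whose titled TC mouse is labelled T, the differences were 0.68 and 0.85 (limma adjusted p = 0.25 and 0.53). With the channel 2 labels of arrays I, J and K, of which those of J and K go against the reactive astrocyte levels, they were -0.029 and -0.604.

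For the other glutamate genes, the TC minus T ratio was 0.18 ± 0.18 for Slc1a3, -0.10 ± 0.14 for Slc1a2 and -0.23 ± 0.14 for Glul, with limma adjusted p of 0.72, 0.84 and 0.55. No gene of the 7 had TC levels all above or all below the T levels, while 4.88% of all features did. In the separate-channel fit 0 of the 7 passed, against 7.32% of all features. Without the TC mouse of array I, 3 passed, against 12.6%: Slc38a3 rose by 0.60 ± 0.18, Slc38a5 rose by 1.09 ± 0.34 and Glul fell by 0.38 ± 0.10 on the log2 scale (limma adjusted p = 0.039, 0.042 and 0.022). Both arrays that paired TC with T gave Glul no fall, with ratios of 0.07 (I) and 0.01 (J). The fit to slide 2 gave it 0.04 ± 0.15. Its T levels were 15.05 to 15.16 on slide 1 and 14.69 and 14.61 on slide 2. All TC mice but that of array C were on slide 2. The part of the slide in the fall of Glul was not tested.

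Intact transgenic and intact wild-type cortex were compared next, and the levels of all 7 genes overlapped. For T minus WT, 0 of 7 passed in the ratio fit, as 0% of all features did, and 0 reached an unadjusted p under 0.05 against 2.93% of features; the separate-channel fit also called 0. Slc38a3 had the smallest p, with a ratio of -0.40 ± 0.19 (unadjusted p = 0.066, limma adjusted p = 0.98). Its T levels, at most 10.77, overlapped the lower WT levels. The ratios of Slc1a2, Slc1a3 and Glul were -0.05 ± 0.13, 0.01 ± 0.16 and -0.03 ± 0.13. No gene had groups that did not overlap, against 0.596% of all features.

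Lesioned transgenic cortex held lower values than lesioned wild-type cortex for 4 genes of the cycle: Slc38a3 at 0.547 times the WTC level, Slc1a2 at 0.717, Slc1a3 at 0.749 and Glul at 0.753. In the ratio fit 0 of the 7 passed the adjusted threshold for TC minus WTC, and 0% of all features did. These 4 had an unadjusted p under 0.05 in the lower direction, against 8.65% of all features. The median of the 7 ratios was -0.41, beside -0.023 over all features.

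Glul, which makes glutamine from glutamate, was 14.86, 14.87, 14.97, 15.09 and 15.01 in the WTC mice (arrays A, B, K, L and M). Its TC levels ran from 14.36 to 14.75 with a median of 14.60. Every TC mouse was below every WTC mouse, the only such gene of the 7, and 0.246% of all features were lower without overlap. All 3 arrays that paired the groups pointed the same way, with ratios of -0.36, -0.58 and -0.66, and the fitted difference was -0.41 ± 0.13 (unadjusted p = 0.010, limma adjusted p = 0.22). On slide 2 alone, where 0% of all features passed, it was -0.54 ± 0.13 (limma adjusted p = 0.95). The T mice of arrays I and J, at 14.69 and 14.61, also lay within the TC range, while those of slide 1 lay at 15.05 or above.

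Slc38a3 gave the largest difference of the 7. The WTC levels above (11.39 to 12.40) overlapped the TC range of 10.57 to 11.83 only through the WTC mouse of array A and the TC mice of arrays J and K. The paired arrays had ratios of -0.47, -0.84 and -1.20, all lower in TC. The fitted difference was -0.87 ± 0.19 (unadjusted p = 0.0012, limma adjusted p = 0.14). With separate channels it fell by 0.90 ± 0.18 on the log2 scale (limma adjusted p = 0.046), the only gene of the 7 to pass there, where 0.135% of all features passed and 0.0231% were lower. Without the TC mouse of array I that ratio was -0.82 ± 0.17 (limma adjusted p = 0.065), and the call was lost, with 0.173% of all features passing. The call was also lost in the separate-channel fit with every probe as a feature, at -0.90 ± 0.18 (limma adjusted p = 0.051). For this comparison the authors' deposited table gives Slc38a3 a log fold change of -1.22 with a limma adjusted p of 0.00095. There 11.2% of its rows are under 0.05. The same table gives Glul -0.29 and Slc1a3 -0.27, with limma adjusted p of 0.17 and 0.40.

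**Figure D2:**
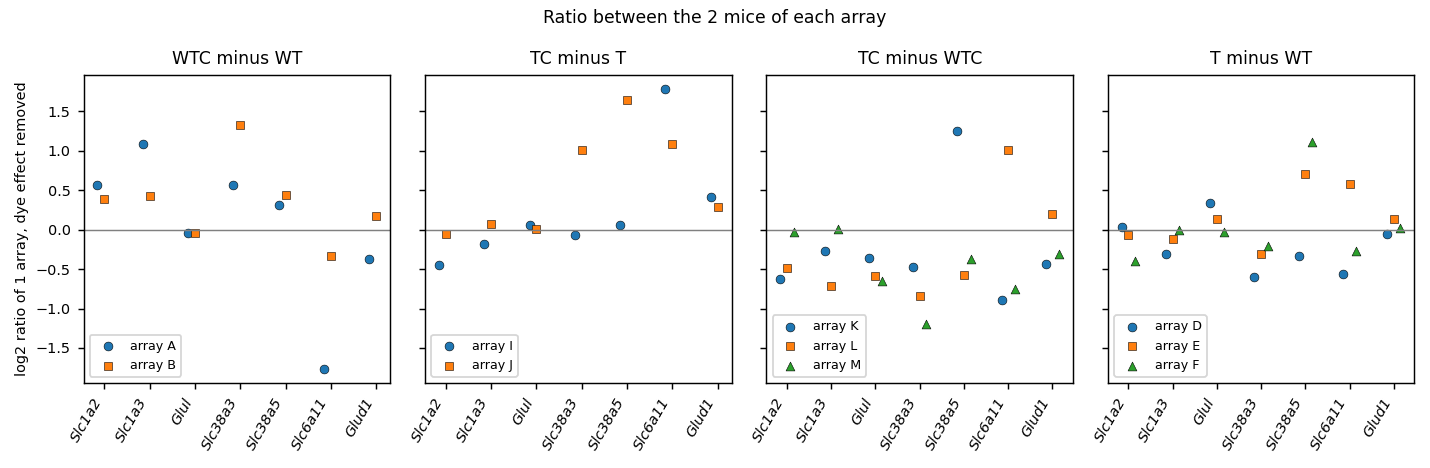
Log2 ratio of each gene on each array, oriented as named above the panels and with the fitted dye effect removed. On the 3 arrays of TC against WTC, Glul and Slc38a3 were below 0 each time, while Slc1a2 and Slc1a3 were near 0 on array M.

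The glutamate transporters were less uniform. Slc1a2 ran from 12.73 to 13.36 in TC mice (median 13.15), overlapping the WTC mice. Its paired ratios were -0.62, -0.49 and -0.03, and the fitted difference was -0.48 ± 0.13 (unadjusted p = 0.0047, limma adjusted p = 0.19). Array M thus showed almost no difference.

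Slc1a3 ran from 13.17 to 13.90 in TC mice with a median of 13.41, and the TC mice of arrays C and M reached the WTC range. Its paired ratios were -0.27, -0.71 and 0.01. The fitted difference was -0.42 ± 0.16 (unadjusted p = 0.027, limma adjusted p = 0.29). Under median centring, where the median difference of all features was 0.085 instead of -0.023, all 4 ratios stayed below 0 but were smaller: -0.14 for Glul, -0.22 for Slc1a2, -0.16 for Slc1a3 and -0.65 for Slc38a3.

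Slc1a2 was also read by 2 further probes, both annotated to the transcript variant NM_001077514 while the brightest probe carries NM_011393. Probe A_55_P2136847 had levels of 10.96 to 11.66 in WTC, 10.03 to 10.97 in TC, 10.31 to 11.002 in WT and 10.28 to 11.02 in T mice. The groups overlapped, since the highest TC mouse (array J, 10.966) was just above the lowest WTC mouse (array A, 10.964). Both intact groups overlapped the TC mice, with medians of 10.857 in WT, 10.705 in T and 10.80 in TC mice. With every probe tested as a feature of its own, its WTC minus WT ratio was 0.53 ± 0.15 (limma adjusted p = 0.13) and its TC minus WTC ratio was -0.83 ± 0.13 (unadjusted p = 0.00011, limma adjusted p = 0.13). In the separate-channel fit the probe had 0.60 ± 0.17 for WTC minus WT (limma adjusted p = 0.016) and -0.78 ± 0.16 for TC minus WTC (limma adjusted p = 0.062). The separate-channel fit with 1 feature per gene called 26.5% of all features for WTC minus WT. In the authors' deposited table this probe has a TC minus WTC log fold change of -0.87 with a limma adjusted p of 0.023. The brightest probe has -0.27 with 0.51, and A_55_P2392625 has -0.445 with 0.35.

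Probe A_55_P2392625 had a TC minus WTC ratio of -0.55 ± 0.17 (limma adjusted p = 0.21) and a WTC minus WT ratio of 0.11 ± 0.19 (limma adjusted p = 0.79). The ratio fit thus gave all 3 probes of Slc1a2 a value below 0 for TC minus WTC and above 0 for WTC minus WT. The probes read the same RNA and both ratios share the WTC mice, so these signs are not independent of each other. In the separate-channel fit A_55_P2392625 had a WTC minus WT difference of -0.069.

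**Figure D3:**
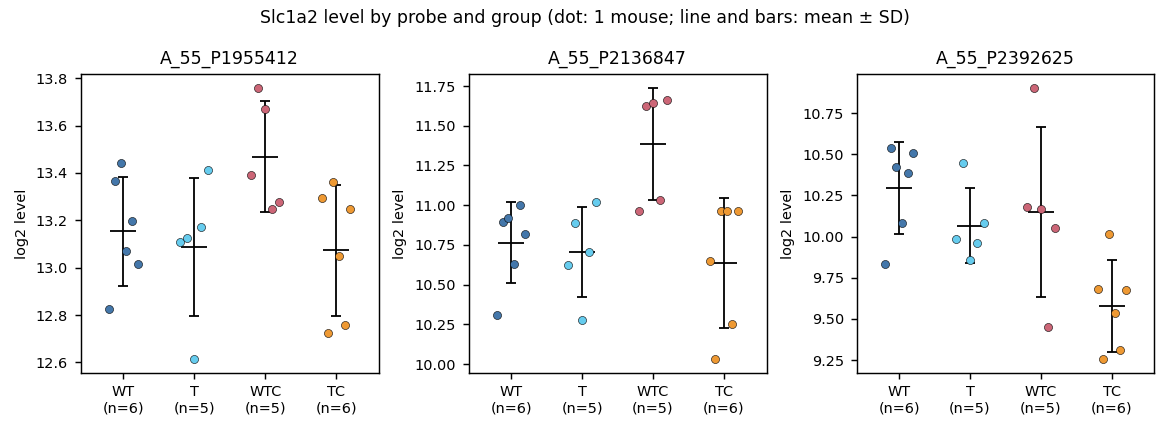
Log2 level of Slc1a2 in each mouse by probe (dots), with group mean and SD (line and bars). The TC mice have the lowest mean of the 4 groups with each probe, and the WTC mice the highest mean with the first and second.

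The difference between the lesion effects of both genotypes, (TC minus T) minus (WTC minus WT), was tested directly. It was -0.43 ± 0.17 for Slc1a2, -0.43 ± 0.21 for Slc1a3, -0.38 ± 0.16 for Glul and -0.47 ± 0.25 for Slc38a3. In the ratio fit 0 of the 7 passed (limma adjusted p = 0.81 for each of these 4), as 0% of all features did. Slc1a2 and Glul had an unadjusted p under 0.05, of 0.030 and 0.048; that is 2 of the 7 in the lower direction, against 2.44% of all features. The separate-channel fit called 0 of the 7 as well. Averaged over both genotypes, the lesion effect was 0.66 ± 0.18 for Slc38a3 (limma adjusted p = 0.0995) and 0.40 ± 0.15 for Slc1a3 (limma adjusted p = 0.18), with 0 of 7 passing against 0.358% of all features. The separate-channel fit called 3 of the 7 for that average, against 33.5% of all features, and also 3, against 39.3%, without the TC mouse of array I.

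Markers of the cell types in the tissue were read beside these. In wild-type mice the lesioned and intact groups did not overlap in several of them. The mean microglia and macrophage level was 11.53 to 12.04 in WT and 12.92 to 13.70 in WTC mice, and that of dividing cell genes 6.65 to 7.26 and 9.17 to 10.55. The mean neuron marker level was 14.61 to 14.76 in WT and lower, at 13.93 to 14.44, in WTC mice. Gfap, the filament protein that marks reactive astrocytes, had a WTC minus WT ratio of 3.47 ± 0.46 (limma adjusted p = 0.056) and a TC minus WTC ratio of -0.18 ± 0.41 (limma adjusted p = 0.87). Aldh1l1, a general astrocyte marker, had 0.87 ± 0.30 and 0.24 ± 0.27 in the same comparisons (limma adjusted p = 0.17 and 0.70). Over the 22 astrocyte markers the WTC minus WT ratios ran from -0.27 to 1.97. The mean level of these markers was 12.16 to 12.96 in WT and 12.65 to 12.89 in WTC mice. Their median TC minus WTC ratio was -0.08, with 13 below 0 and values from -0.47 to 1.08. Of 9 oligodendrocyte markers 8 were below 0 with a median of -0.38, of 11 microglia and macrophage markers 11 with -0.33, of 10 striatum genes 10 with -1.73 and of 7 choroid plexus genes 7 with -2.53. The 9 measured neuron markers had a median of 0.07. For TC minus WTC the dividing cell genes ran from -1.05 to -0.23, the endothelial markers from -0.33 to 0.22 and the blood genes from -0.12 to 0.51. Of these listed genes 0 passed in the ratio fit for TC minus WTC, and the separate-channel fit called 1 astrocyte marker, higher in TC. Mean levels of the microglia list ran from 12.92 to 13.70 in WTC and from 11.62 to 13.64 in TC mice; those of the choroid plexus list ran from 8.87 to 12.88 and from 7.73 to 12.79. The part of these cell types in the values of the 7 genes was not tested.

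Slc38a5, the other glutamine exporter, rose with the lesion in the separate-channel fit given above for wild-type mice, but varied widely. It was 9.34 to 10.17 in WT mice (median 9.45), and 9.10, 10.05, 10.50, 9.68 and 8.96 in T mice. In the WTC mice it was 10.48, 10.01, 10.07, 10.80 and 11.87, and in the TC mice 9.74 to 11.50 (median 10.47). The WT and WTC levels overlapped, through the WT mouse of array A at 10.17. The ratio fit gave 0.63 ± 0.41 for WTC minus WT and 0.58 ± 0.40 for TC minus T (limma adjusted p = 0.44 and 0.60), with 0.27 ± 0.36 for TC minus WTC (limma adjusted p = 0.75). The direction of that last ratio was not settled: the mean level was 10.62 in TC and 10.65 in WTC mice, and the ratio was -0.078 without array K.

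**Figure D4:**
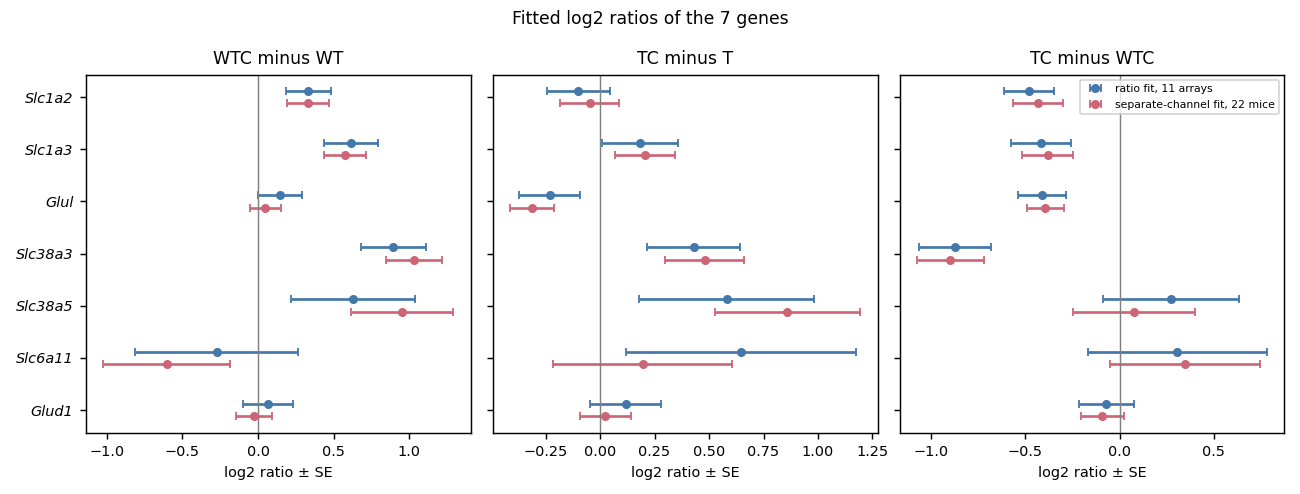
Fitted log2 ratio ± SE of the 7 genes for WTC minus WT, TC minus T and TC minus WTC, from the ratio fit (11 arrays) and the separate-channel fit (22 mice); the scales of the panels differ. Slc1a2, Slc1a3, Glul and Slc38a3 lie below 0 for TC minus WTC in both fits, and Slc38a5 and Slc6a11 have the widest errors.

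Slc6a11, the GABA transporter GAT-3, varied widely between mice. Its level was 9.78 to 11.80 in WT mice (median 10.31) and 9.13 to 11.93 in TC mice (median 10.10). The T mice had 9.89, 10.73, 10.82, 10.14 and 9.46, and the WTC mice 10.03, 9.75, 10.19, 9.42 and 9.89. The groups overlapped in every comparison, with the WT mouse of array A and the TC mouse of array I highest. Ratio-fit differences were -0.27 ± 0.54 for WTC minus WT, 0.65 ± 0.53 for TC minus T, -0.62 ± 0.48 for T minus WT and 0.31 ± 0.47 for TC minus WTC, with limma adjusted p between 0.66 and 0.98. On slide 1 alone WTC minus WT was -1.05 ± 0.14 (limma adjusted p = 0.024), a call that the fit of both slides did not make. Only arrays A and B held WTC mice there, and the dye effect was fitted on that slide alone. With the dye effect of the full fit removed, the ratios of A and B were -1.77 and -0.33.

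The level of Slc6a11 followed that of Slc17a6, a vesicular glutamate transporter known mainly from subcortical neurons, from mouse to mouse. Pearson's r was 0.940 over the 11 intact and 0.757 over the 11 lesioned mice, given as a description of a pair chosen after its values were seen. Without the 2 mice farthest from the median of Slc17a6 it was 0.894 and 0.524. Slc17a6 stood at 13.94 in the WT mouse of array A and 13.75 in the TC mouse of array I, and at 7.93 in the TC mouse of array K. For Slc1a2 the same r was -0.753 and -0.598, for Glud1 0.764 and 0.526, and for Glul 0.341 and -0.181. Without those 2 mice it was -0.717 and -0.007 for Slc1a2 and 0.532 and 0.264 for Glud1, so the value of Slc1a2 in lesioned mice rested on the 2 mice left out. The part of subcortical tissue in these values was not tested.

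**Figure D5:**
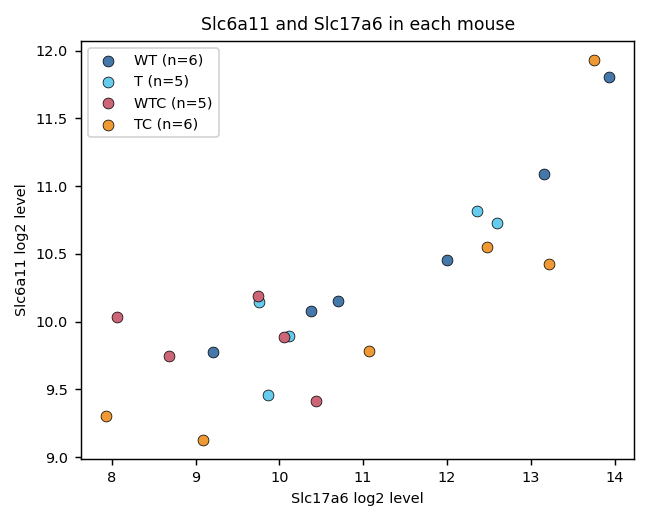
Log2 level of Slc6a11 against that of Slc17a6 in each of the 22 mice, coloured by group. The WT mouse of array A and the TC mouse of array I lie highest on both axes, at 13.94 and 11.80 and at 13.75 and 11.93.

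Read by its brightest probe, Glud1, which links glutamate to energy metabolism, stayed within the spread of its groups. Its level was 13.995 to 14.46 in WT, 13.82 to 14.30 in T, 14.004 to 14.33 in WTC and 13.63 to 14.32 in TC mice. The groups overlapped in all comparisons, and ratios lay between -0.12 ± 0.15 (T minus WT) and 0.12 ± 0.16 (TC minus T). A further Glud1 probe, A_55_P2065716, gave 0.23 ± 0.17 for WTC minus WT and -0.12 ± 0.15 for TC minus WTC (limma adjusted p = 0.51 and 0.75). In the separate-channel fit its mean lesion effect was 0.27 ± 0.10 (limma adjusted p = 0.041), beside -0.002 ± 0.09 for the brightest probe. That fit with 1 feature per gene called 33.5% of all features for the mean lesion effect.

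Across mice, the 7 genes did not move as one. Over the 11 intact mice Slc6a11 and Glud1 had r = 0.855 and Slc1a2 and Slc6a11 had r = -0.769; over the 11 lesioned mice these were 0.687 and -0.434. Slc1a2 and Slc1a3 had 0.428 and 0.647, and Glul and Slc38a3 had -0.098 and 0.673. These correlations share arrays and tissue composition and are descriptions only. By the mean of both r values, the features most like each gene were Tecpr2 for Slc1a2 (0.949), Vipr1 for Slc1a3 (0.842), Pm20d1 for Glul (0.771), Dag1 for Slc38a3 (0.829), Mmp14 for Slc38a5 (0.867), Itih3 and Ece2 for Slc6a11 (0.961 each) and Daam1 for Glud1 (0.869).

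The neuronal and metabolic partners of the cycle were read from a list of 32 genes, of which 29 were measured. In the ratio fit 0 of the 29 passed for the lesion in wild-type or transgenic mice or for the transgene in intact or lesioned mice; the separate-channel fit called 2 higher and 5 lower for WTC minus WT, 1 higher for TC minus T and 0 in the other comparisons. These 7 of 29 and 1 of 29 stand beside 26.5% and 7.32% of all features, so neither share exceeded that of all features. Median ratios were -0.07, 0.16, -0.10 and 0.06 in the order just given, against 0.003, 0.005, -0.002 and -0.023 over all features. In the separate-channel fit for WTC minus WT, Aldh5a1, the dehydrogenase that completes GABA breakdown, rose by 0.85 ± 0.12 and Slc1a5, a neutral amino acid exchanger, rose by 1.01 ± 0.28 (limma adjusted p = 0.00023 and 0.014). Among the genes that fell there were the transaminase Got2, by 0.58 ± 0.13, the glutaminase Gls2, by 0.81 ± 0.18, the GABA-synthesising Gad1, by 0.87 ± 0.23, and the glutamine transporter Slc38a2, by 0.39 ± 0.13 on the log2 scale (limma adjusted p = 0.0049, 0.0046, 0.011 and 0.031). For TC minus T, Aldh5a1 rose by 0.79 ± 0.12 in the same fit (limma adjusted p = 0.0012).

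For TC minus WTC, the partner gene with the smallest p was Slc38a2, SNAT2, through which neurons take up glutamine. Its level was 12.14, 11.84, 11.36, 11.82 and 11.57 in the WTC mice and 11.83 to 12.63 in the TC mice. The ratio was 0.51 ± 0.10 (unadjusted p = 0.00047, limma adjusted p = 0.13), opposite in sign to Slc38a3. Gls2, Got2 and Gpt had ratios of 0.48 ± 0.19, 0.33 ± 0.11 and 0.36 ± 0.14, and the vesicular GABA transporter Slc32a1 and Slc1a5 had -0.54 ± 0.30 and -0.55 ± 0.31, with limma adjusted p between 0.25 and 0.44.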

How the data were processed

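Scanner files were deposited by the authors and hold linear intensity values; per the file headers they were extracted with Feature Extraction 10.7.3.1. The median spot and background signals, which were not normalized, were used. They also deposited a table of log2 ratios and adjusted p-value columns, made with limma per the submitters' processing notes; its version and log base are not given in the sources used here, and its p-values for WTC minus WT, of which 766 exceed 1, were not used.

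In R 4.3.3 with limma 3.58.1, signals were background-corrected by normexp (offset 50) and then normalized by loess within arrays with control and outlier spots at weight 0. Each channel had 56.6% to 65.3% of its spots well above background; precision is limited by how many arrays there are. Spots of a probe were averaged, 35540 probes that exceeded background well in 5 or more of the 22 channels were kept, and each gene was read by its brightest probe (25986 features, 16021 with a symbol). Log2 ratios of 11 arrays were fitted with a dye term and 1 coefficient each for T, WTC and TC (WT as baseline; lmFit, eBayes, 7 residual degrees of freedom). Tests were two-sided, and Benjamini-Hochberg adjustment ran over all features. Levels are channel values after loess and Aquantile with the dye effect removed. Since each channel is a different animal in the labels, the p-values reflect animal-to-animal spread. The ratio fit was tested on simulated array ratios with known differences and no slide effect. The separate-channel fit was not tested in this way.

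The 7 genes and all lists were chosen with earlier results of these data known. All 7 genes are named; of the partner list, up to 4 genes per direction with the smallest p; of the other lists, Gfap and Aldh1l1; and by likeness, up to 3 features a gene. Slc17a6 was named after its values were seen. Alternatives were other background, normalization, filter and probe choices, slide as a block, an Xist term, the channel 2 labels, a separate-channel fit, with or without array I's TC mouse, and leaving out each array. Fits within slides and with every probe were added after seeing the data.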

Additional observations from a re-analysis of the deposited data

Results flagged for a closer look

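Among 28 groups of levels examined (7 genes in 4 groups), 2 held a mouse far from the others, and chance would mark about 1 group in 20. Both were the WT mouse of array A. Its Slc1a3 level was 12.67, against 13.35 to 13.53 in the other WT mice. Its Slc38a5 level was 10.17, against 9.34 to 9.58 in the others. The same mouse had the highest Slc6a11 and Glud1 levels of the WT group, 11.80 and 14.46.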

How the results depend on the processing

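No gene of the 7 passed in the ratio fit under the other background, normalization, filter, probe and label choices, the slide block or the Xist term. For WTC minus WT the number passing was 3 with separate channels, 4 when array I's TC mouse was also left out, 2 within slide 1 and 0 to 1 when single arrays were left out (1 without array I or K, which was Slc38a3). For TC minus T it was 3 with separate channels without that mouse, and for TC minus WTC 1 with separate channels. For the mean lesion effect it was 3 with separate channels with or without that mouse and 0 to 1 when single arrays were left out (1 without array I). Features passing for WTC minus WT, 6 in the ratio fit, were 0 with median centring, 1 without the filter, 1 with the mean of probes, 1 with the slide block, 0 with the channel 2 labels, 299 with the Xist term and 0 to 1557 without single arrays; for the mean lesion effect, 93, they were 183, 17, 93, 53, 0, 323 and 0 to 1393. The cause was not tested.

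These ratios changed sign. With median centring, Glul and Glud1 were -0.078 and -0.164 for WTC minus WT, Glul 0.030 for T minus WT, Glud1 0.198 for TC minus WTC, Slc38a5 0.145 for the difference of lesion effects, and Slc1a2 and Glud1 -0.002 and -0.033 for the mean lesion effect. With separate channels, Glud1 was -0.026 for WTC minus WT, Slc1a3 -0.012 for T minus WT, and Slc6a11 and Glud1 -0.205 and -0.001 for the mean lesion effect. Also without the TC mouse of array I, Glud1 was -0.049 for WTC minus WT; Slc1a2, Slc6a11 and Glud1 were 0.044, -0.241 and -0.062 for TC minus T; Slc1a3 was -0.021 for T minus WT; Slc38a5 and Glud1 were 0.075 and -0.013 for the difference; and Slc6a11 and Glud1 were -0.482 and -0.055 for the mean. With the channel 2 labels, Slc1a2, Slc38a3 and Slc38a5 were 0.219, -0.029 and -0.604 for TC minus T, Slc1a3 and Glul -0.017 and 0.045 for T minus WT, Slc38a5 -0.137 for TC minus WTC, Glud1 -0.015 for the difference, and Slc38a5 and Slc6a11 -0.157 and -0.132 for the mean. Within slide 1, Glul and Glud1 were -0.041 and -0.101 for WTC minus WT, and Slc1a3, Glul, Slc6a11 and Glud1 were -0.185, 0.146, 0.111 and 0.089 for T minus WT. Within slide 2, Slc1a3 and Glul were -0.049 and 0.040 for TC minus T and Slc6a11 -0.087 for TC minus WTC. Probe A_55_P2392625 of Slc1a2 was -0.069 for WTC minus WT with separate channels.

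Leaving out single arrays turned the sign of Glud1 for WTC minus WT (-0.012 to 0.253), TC minus T (-0.036 to 0.189), TC minus WTC (-0.179 to 0.061), the difference (-0.064 to 0.165) and the mean (-0.022 to 0.221). It did so for Glul for T minus WT (-0.152 to 0.033) and the mean (-0.154 to 0.038), for Slc1a2 for T minus WT (-0.104 to 0.066) and TC minus T (-0.164 to 0.073), and for Slc1a3 for T minus WT (-0.046 to 0.115). Slc38a5 ran from -0.078 to 0.61 for TC minus WTC and from -0.474 to 0.275 for the difference, and Slc6a11 from -0.544 to 0.37 for WTC minus WT and from -0.237 to 0.631 for the mean. The TC minus WTC ratios of Slc1a2, Slc1a3, Glul and Slc38a3 kept their sign in every alternative run. No paired analysis was possible because, beyond the pairing within each array, the labels give no replicate number that groups share.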
